A study of Mus musculus with 24 samples.

Results

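The 10 genes described here encode secreted proteoglycans of connective tissue. They are the small leucine-rich proteoglycans (SLRPs) Dcn (decorin), Bgn (biglycan), Aspn (asporin), Lum (lumican), Fmod (fibromodulin), Prelp, Omd (osteomodulin), Ogn (osteoglycin) and Podn (podocan), and the large hyaluronan-binding proteoglycan Vcan (versican). They were found by symbol among 49568 genes in each of 2 RNA-seq tables of mouse liver cells, and every member was present in both.

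The first table held 12 samples of healthy liver, made from 3 mice (A and E male, F female, 12 weeks old). Each mouse gave EpCAM+ ductal cells (DC) and 3 stromal fractions negative for CD31, CD45 and CD11b, namely PDGFRα-SCA1+, PDGFRα+SCA1- and PDGFRα+SCA1+. All 3 mice carried 1 copy of the Pdgfra-H2B-GFP reporter (B6.129S4-Pdgfratm11(EGFP)Sor/J) on a C57BL/6 background, so the PDGFRα gate read the GFP driven from the Pdgfra locus. The second table held 12 samples of a transwell experiment with wild type C57BL/6 mice of 8 to 12 weeks, 2 per group. Its groups were freshly sorted DC (DC day 0), DC grown for 15 days as organoids in expansion medium (EM organoids), DC grown for 15 days as organoids above mesenchyme in mesenchymal medium (co-cultured organoids), SCA1+ mesenchymal cells at day 0 (Msc day 0), and the same cells at day 15 alone (Msc alone) or below DC (co-cultured Msc). These Msc were sorted as SCA1+ CD45- CD11b- CD31- without a PDGFRα gate. The mesenchyme and the DC came from different littermates, and the Msc were expanded in the wells before the DC were added. Co-cultured and EM organoids differed in both medium and company, which cannot be told apart.

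Reads on genes numbered 19.6 to 25.7 M per homeostasis sample, and the library totals behind the transwell RPKM were 17.6 to 26.1 M reads. The sort was visible in the transcripts: Pdgfra averaged 74.7 ± 24.2 in PDGFRα+SCA1- and 82.3 ± 18.0 in PDGFRα+SCA1+ samples, against 0.0563 ± 0.0231 in DC and 0.0328 ± 0.0066 in PDGFRα-SCA1+ samples (deposited values, SD, n = 3 mice). The 5 mesenchymal markers (Pdgfra, Pdgfrb, Col1a1, Col1a2 and Col3a1) summed to 3846–5188 in the PDGFRα+ fractions. In the PDGFRα-SCA1+ fraction they summed to 16.8–64.2, while 6 endothelial markers summed to 2530–2717 there and to at most 19.4 in the other fractions. Msc day 0 samples carried hepatocyte transcripts, 4 markers summing to 15699–20258 TPM against 0.4–369 TPM in both cultured Msc groups. In DC day 0 these markers summed to 4131–5214 TPM, against 1343–1407 in EM and 168–362 in co-cultured organoids. Their deposited values summed to 5780–6908 in homeostasis DC, 1966–6287 in PDGFRα-SCA1+ and 207–1615 in the PDGFRα+ samples.

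SLRPs are small core proteins built of leucine-rich repeats. Most bind fibrillar collagen and set the width and spacing of its fibrils, and several carry chondroitin, dermatan or keratan sulfate chains and hold growth factors such as TGF-β in the matrix. Versican instead bears many chondroitin sulfate chains and binds hyaluronan, forming a loose, hydrated matrix. In the liver both kinds are known mainly from portal tract connective tissue, stellate cells and scar.

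Most members lie in small neighbourhoods of related genes (GRCm38). Dcn (chr10:97479609-97518143, plus strand) and Lum (chr10:97565128-97572703, plus strand) are neighbours on chromosome 10. Prelp (chr1:133910304-133921414, minus strand) and Fmod (chr1:134037254-134048277, plus strand) lie close together on chromosome 1. Aspn (chr13:49544443-49567565), Omd (chr13:49582462-49592822) and Ogn (chr13:49608046-49624501) follow each other on the plus strand of chromosome 13, all 3 inside the body of Cenpp, which runs on the minus strand. Vcan (chr13:89655312-89742509, minus strand) lies elsewhere on that chromosome, Podn on chromosome 4 (chr4:108014791-108096445, minus strand) and Bgn on the X chromosome (chrX:73483602-73495933, plus strand). The libraries did not mark strand, so the 350 exon bases that Prelp shares with the antisense gene Gm15851 and the 7 that Aspn shares with Cenpp cannot be assigned to 1 gene.

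The promoters of the members that fell most in cultured Msc (Aspn, Omd and Ogn) and of the members that rose there (Bgn and Prelp) are shown because the culture comparison below turns on them. Each is the 250 bases before the RefSeq start site, in the direction of the gene (RefSeq, GRCm38.p6): Aspn chr13:49544193-49544442, Omd chr13:49582212-49582461, Ogn chr13:49607765-49608014, Bgn chrX:73483351-73483600 and Prelp chr1:133921402-133921651, the last on the minus strand. Capitals mark every match on either strand to the TATA box letters TATAAA, the box named CCAAT, the GC box letters GGGCGG, the AP-1 motif TGANTCA or the TEAD motif GGAATG, and some matches overlap.
Aspn: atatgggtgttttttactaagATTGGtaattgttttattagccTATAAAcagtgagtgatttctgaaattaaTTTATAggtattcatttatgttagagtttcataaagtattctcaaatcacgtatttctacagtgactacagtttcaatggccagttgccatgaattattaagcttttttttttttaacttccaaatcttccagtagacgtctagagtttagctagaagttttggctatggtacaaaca
Omd: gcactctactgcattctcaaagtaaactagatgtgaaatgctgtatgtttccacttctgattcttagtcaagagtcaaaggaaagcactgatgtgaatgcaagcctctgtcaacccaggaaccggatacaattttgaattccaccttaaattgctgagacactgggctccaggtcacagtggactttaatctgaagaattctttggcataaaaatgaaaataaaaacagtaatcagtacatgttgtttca
Ogn: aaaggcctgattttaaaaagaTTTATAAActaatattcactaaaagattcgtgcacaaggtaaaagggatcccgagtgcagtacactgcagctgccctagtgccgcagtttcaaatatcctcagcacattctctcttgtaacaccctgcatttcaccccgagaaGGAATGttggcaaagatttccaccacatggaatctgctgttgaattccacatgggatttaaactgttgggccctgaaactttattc
Bgn: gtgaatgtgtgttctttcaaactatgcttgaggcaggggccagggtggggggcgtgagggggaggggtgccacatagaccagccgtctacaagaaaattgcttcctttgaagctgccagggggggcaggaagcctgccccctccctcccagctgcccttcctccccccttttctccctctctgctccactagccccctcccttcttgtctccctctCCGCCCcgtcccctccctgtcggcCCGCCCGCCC
Prelp: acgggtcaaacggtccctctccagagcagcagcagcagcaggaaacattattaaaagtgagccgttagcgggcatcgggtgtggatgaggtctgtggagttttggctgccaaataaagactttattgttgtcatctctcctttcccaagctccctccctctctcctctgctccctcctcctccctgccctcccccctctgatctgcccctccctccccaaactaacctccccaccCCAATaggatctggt
The GC content of these windows was 30% for Aspn, 38.4% for Omd and 42% for Ogn, against 64.4% for Bgn and 55.6% for Prelp. The median over 32851 promoter windows was 52.4%, so the 3 windows of Aspn, Omd and Ogn lay below it and the other 2 above. The windows not printed did not share this split. That of Vcan, which fell in Msc alone, held 62.4% and 2 GGGCGG matches. Podn and Fmod, not called in cultured Msc, had windows of 78% and 64% (Podn) and 51.2% (Fmod). Any part of GC content in the changes was not tested. Aspn held 2 TATAAA matches and 1 CCAAT match, Ogn 2 overlapping TATAAA matches and 1 GGAATG match, Bgn 3 GGGCGG matches within 34 bases of the start, Prelp 1 CCAAT match, and Omd no match. Over all windows, 12.4% held TATAAA, 33.8% CCAAT, 32.7% GGGCGG, 6.75% TGANTCA and 12.6% GGAATG. RefSeq windows were matched for 8 of the 10 members. Dcn and Lum had none.

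In healthy liver the family was far more abundant in both PDGFRα+ fractions than in the others. All 10 members passed the filter on low values (at least 1 in at least 3 samples), 5 of them (Aspn, Omd, Ogn, Podn and Vcan) only because of the PDGFRα+ samples, so the counts that follow are descriptions. Between PDGFRα+SCA1+ and DC samples 10 of 10 members were higher at a limma adjusted p under 0.05, where 9.85% of the 17028 genes tested were called higher. The members' median log2 difference was 7.06, against -0.28 over all genes. Between PDGFRα+SCA1- and DC samples 9 of 10 were called higher, against 9.98% of all genes, the exception being Omd. These 2 comparisons share the DC samples.

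Dcn, a collagen-binding class I SLRP, was the most abundant member. Its deposited values in mice A, E and F were 42557, 43598 and 20423 in PDGFRα+SCA1- and 25796, 22570 and 25514 in PDGFRα+SCA1+ samples. They were 391, 227 and 423 in PDGFRα-SCA1+ and 61.8, 29.4 and 36.8 in DC samples. The PDGFRα+ fractions overlapped each other and lay far above the other two. Per length, as TPM, Dcn ranked 1 or 2 among all genes in every PDGFRα+ sample. This rank rests on the gene length behind the deposited values, 2084 bases, where a later annotation gives 5838. The log2 difference from DC was 9.21 ± 0.35 (SE) for PDGFRα+SCA1+ (adjusted p = 1.4e-08) and 9.66 ± 0.35 for PDGFRα+SCA1- (adjusted p = 9.6e-09).

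Biglycan, the closest relative of decorin, was spread more evenly over the fractions. Bgn read 3372, 3466 and 3556 in PDGFRα+SCA1-, 2957, 2422 and 3728 in PDGFRα+SCA1+, 1034, 1299 and 1099 in PDGFRα-SCA1+, and 76.1, 110.3 and 118.3 in DC samples. Its log2 difference between PDGFRα+SCA1+ and DC was 4.89 ± 0.21 (limma adjusted p = 3e-08), well under that of Dcn. Aspn, the third class I member, which binds collagen but carries no glycosaminoglycan chain, was low and varied between mice. It read 57.3, 205 and 153 in PDGFRα+SCA1- and 12.9, 69.9 and 4.88 in PDGFRα+SCA1+ samples, and at most 9.18 in PDGFRα-SCA1+ and 0.238 in DC samples. The difference between PDGFRα+SCA1+ and DC was 4.03 ± 0.99 (adjusted p = 0.01), and 3.04 with adjusted p = 0.051 without the PDGFRα+SCA1+ sample of mouse E.

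The class II members lumican, fibromodulin and Prelp, which also bind collagen, were all abundant in the PDGFRα+ fractions. Lum ranged from 2900 to 5717 over the 6 PDGFRα+ samples, from 15.9 to 45.7 in PDGFRα-SCA1+ and from 3.38 to 9.54 in DC samples. Prelp, known as an anchor between collagen and basement membrane, read 1967–2953 in the PDGFRα+ samples, 533, 599 and 286 in PDGFRα-SCA1+ and 66.0, 36.5 and 31.9 in DC samples. Among Lum, Prelp and Fmod, it was Fmod that differed most between the PDGFRα+ fractions. Fmod read 228, 734 and 242 in PDGFRα+SCA1- and 957, 1386 and 1230 in PDGFRα+SCA1+ samples, and was at most 15.8 elsewhere. The log2 differences of PDGFRα+SCA1+ from DC were 9.01 ± 0.40 for Lum, 5.63 ± 0.32 for Prelp and 9.21 ± 0.53 for Fmod (limma adjusted p = 3.1e-08, 1.7e-07 and 1.7e-07).

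Omd, a class II member best known from bone, was seen in 4 samples only. It read 67.1, 87.7 and 42.6 in PDGFRα+SCA1+ samples, 128.7 in PDGFRα+SCA1- of mouse E, and 0 in all 8 other samples. Its mean in PDGFRα+SCA1+ was at least 188-fold higher than in DC, taking 3 reads per library as the floor (limma adjusted p = 0.0087). With the males alone the adjusted p was 0.081. The PDGFRα+SCA1- samples did not differ from DC at the threshold (adjusted p = 0.25), since 2 of 3 stood at 0.

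The remaining members followed the PDGFRα+ fractions at lower levels. Ogn, a class III SLRP, read 397, 825 and 265 in PDGFRα+SCA1- and 455, 669 and 682 in PDGFRα+SCA1+ samples, 6.35, 0.685 and 2.70 in PDGFRα-SCA1+, and 0.0629–0.249 in DC, where it rested on 1 to 4 reads. Podn, a class V SLRP, ranged from 106 to 375 over the PDGFRα+ samples, from 0.717 to 5.15 in PDGFRα-SCA1+ and from 0.170 to 0.268 in DC. Vcan read 22.8, 50.1 and 16.5 in PDGFRα+SCA1- and 11.1, 16.4 and 11.3 in PDGFRα+SCA1+ samples, was at most 2.46 in PDGFRα-SCA1+ and at most 0.628 in DC. Their log2 differences between PDGFRα+SCA1+ and DC were 8.98 ± 0.53 for Ogn, 8.12 ± 0.53 for Podn and 3.54 ± 0.61 for Vcan (limma adjusted p = 2e-07, 4.7e-07 and 0.0011). The value for Vcan was the lowest of the 10 on this scale, which holds down low genes. Its ratio of means (60.6) was above that of Bgn (29.9) and Prelp (48.4). The DC values of Vcan rested on 0, 1 and 50 reads in mice A, E and F. Its DC mean thus came almost wholly from mouse F, and the place of its ratio is uncertain.

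**Figure D1:**
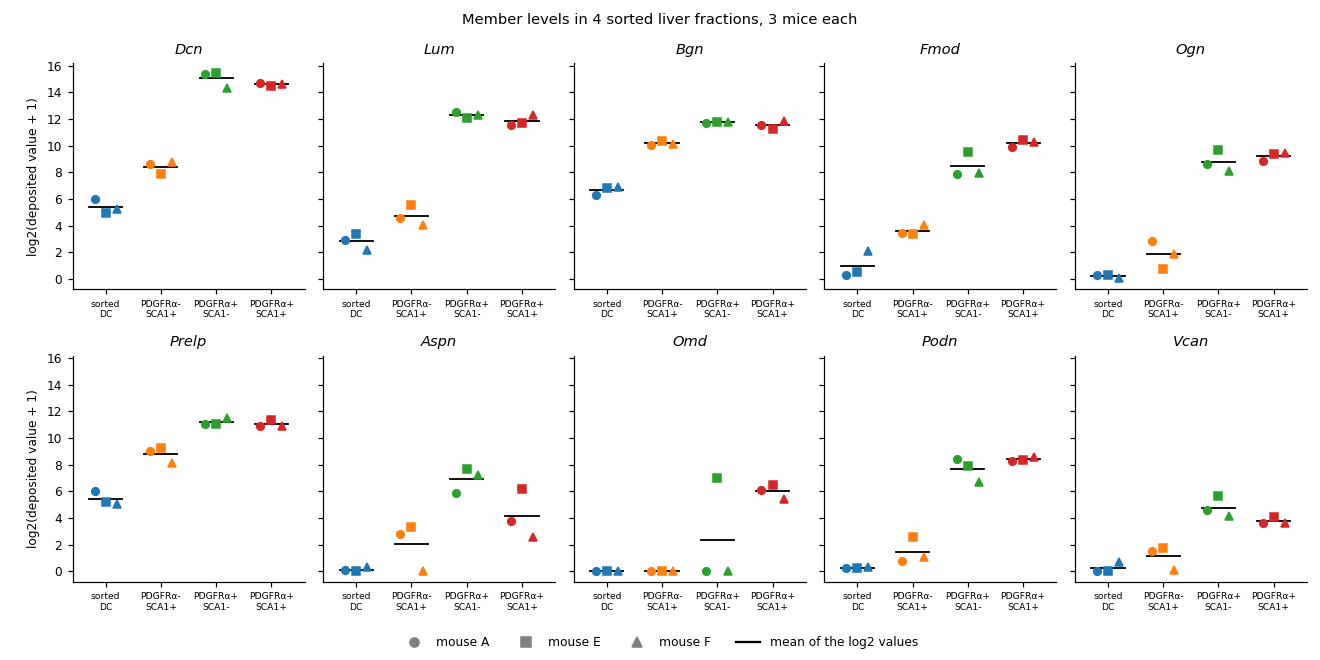
Deposited expression values of the 10 members in the 4 sorted fractions, on a log scale, with 1 point per mouse. Dcn lies at 20423 or more in all 6 PDGFRα+ samples, Fmod is higher in PDGFRα+SCA1+ than in PDGFRα+SCA1- samples without overlap, and Omd is at 0 in 8 of 12 samples.

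No member differed between the 2 PDGFRα+ fractions at an adjusted p under 0.05 (limma), where 0.587% of all genes did. At an unadjusted p under 0.05 there were 3 members, Fmod, Aspn and Omd, and 1985 of 17028 genes. Fmod was 1.77 ± 0.53 log2 units higher in PDGFRα+SCA1+ (adjusted p = 0.2) and did not overlap between the fractions, as for 14.5% of all genes. Vcan was 1.01 ± 0.61 lower (adjusted p = 0.58), again without overlap, and Aspn 2.77 ± 0.99 lower (adjusted p = 0.29) with overlap. The 1 PDGFRα+SCA1- sample from mouse E decided the count. Without it Fmod was 2.32 higher (adjusted p = 0.038) and Omd 6.00 higher (adjusted p = 0.00028), so 2 members were called. Omd then stood at 0 in every sample outside PDGFRα+SCA1+ and stayed in the test only through that fraction. Its other groups had no spread, which lowers the spread that the fit estimates, so the call for Omd is a description. The ratio of Prelp to Fmod in TPM was 7.20, 2.98 and 9.05 in PDGFRα+SCA1- and 2.08, 1.38 and 1.26 in PDGFRα+SCA1+ samples of mice A, E and F, lower in the second fraction of each mouse. The 95% interval of the difference was -1.21 to 0.30 for Dcn, -1.32 to 0.42 for Lum, -0.68 to 0.25 for Bgn and -0.84 to 0.57 for Prelp. Beside this contrast, 4 smooth muscle markers (Acta2, Myh11, Cnn1 and Actg2) were called lower in PDGFRα+SCA1+ (4 of 4), their sum being 128–169 there and 1236–2769 in the SCA1- samples. Their part in the values of Aspn, Fmod and Vcan was not tested.

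The PDGFRα-SCA1+ fraction, which was rich in endothelial transcripts, held an uneven part of the family. Of 10 members, 6 were higher there than in DC (limma adjusted p under 0.05), against 11.5% of all genes. They were Bgn (3.50 ± 0.21 log2 units, adjusted p = 5.2e-07), Prelp (3.37 ± 0.32, 1.2e-05), Dcn (3.01 ± 0.35, 4.7e-05), Fmod (2.63 ± 0.53, 0.003), Lum (1.91 ± 0.40, 0.0037) and Ogn (1.61 ± 0.53, 0.046). The call for Ogn was lost with the mouse as a block (adjusted p = 0.069), which left 5 members, and when any DC sample or the PDGFRα-SCA1+ sample of mouse A or F was left out (adjusted p = 0.092 to 0.17). Without that of mouse F, Aspn was called (2.96, adjusted p = 0.039). Against the 2 PDGFRα+ fractions, 9 of 10 members were higher in PDGFRα+SCA1+ (7.86% of all genes), all but Aspn, and 9 of 10 in PDGFRα+SCA1- (7.24%), all but Omd. In such bulk samples fewer cells of a type and less RNA per cell cannot be told apart.

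Expressed as a percentage of the PDGFRα+SCA1+ mean, most members lay in 2 ranges in the PDGFRα-SCA1+ fraction. Bgn reached 37.7% (29.5–53.6% within mice) and Prelp 21.8% (14.6–27.1%). Dcn reached 1.41% (1.01–1.66%), Fmod 0.974% (0.66–1.28%), Lum 0.753% (0.314–1.39%), Podn 0.684% (0.227–1.59%) and Ogn 0.539% (0.102–1.39%). The 5 mesenchymal markers summed were near these, at 0.959% (0.377–1.41%). Omd stood at 0. Aspn (17.5%, 0–47.7% within mice) and Vcan (11.3%, 0.781–16.5%) varied too much between mice to place. In DC the means of Bgn (3.35%, 2.57–4.56% within mice) and Prelp (2.07%, 1.42–3.36%) again stood highest. Vcan (1.65%, 0–5.58%) and Aspn (0.353%, 0–4.87%) again varied too much between mice to place. Dcn was at 0.173% and the mesenchymal markers were at 0.229%.

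**Figure D2:**
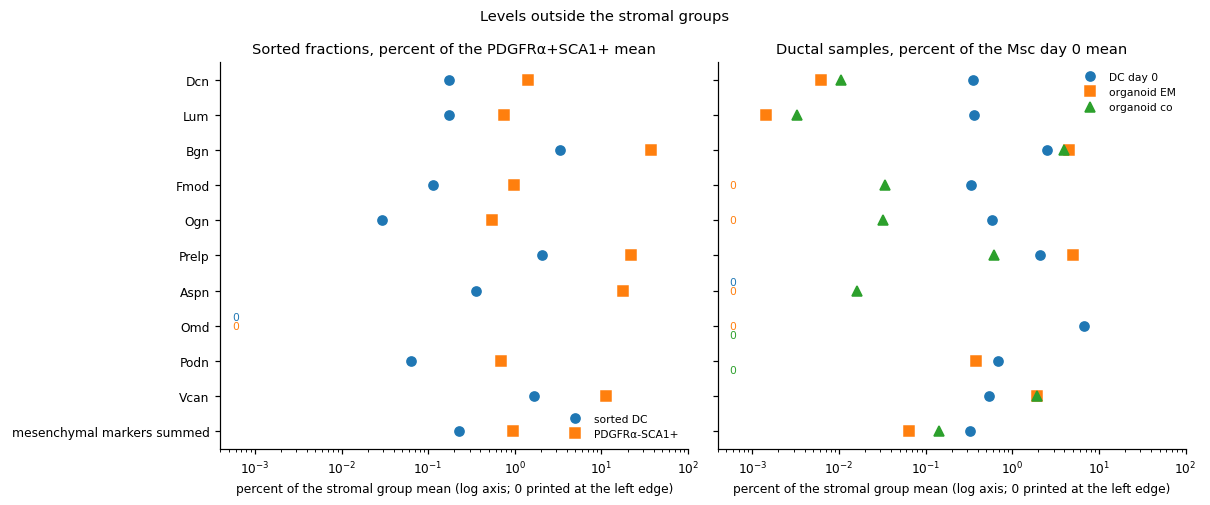
Level of each member as a percentage of its mean in the mesenchymal reference, which was PDGFRα+SCA1+ for the homeostasis fractions and Msc day 0 for the transwell groups, on a log scale, beside the summed mesenchymal markers. Bgn and Prelp lie above the markers in the PDGFRα-SCA1+ and DC fractions, at 37.7% and 21.8% against 0.959% in the former.

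The members together made up 4.76 ± 1.03% of all TPM in PDGFRα+SCA1- and 3.57 ± 0.42% in PDGFRα+SCA1+ samples, 0.194 ± 0.031% in PDGFRα-SCA1+ and 0.0175 ± 0.0017% in DC (SD, n = 3 mice). Dcn alone was 72.1% and 67.5% of the family in the 2 PDGFRα+ fractions, with Lum (11.1% and 10.4%) and Bgn (8.59% and 9.20%) next. In PDGFRα-SCA1+ and DC samples Bgn led, at 59.3% and 54.4%, before Prelp (21.4% and 20.8%) and Dcn (16.7% and 20.6%). The leading member therefore changed from decorin to biglycan between PDGFRα+ and PDGFRα- cells in each of the 3 mice.

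**Figure D3:**
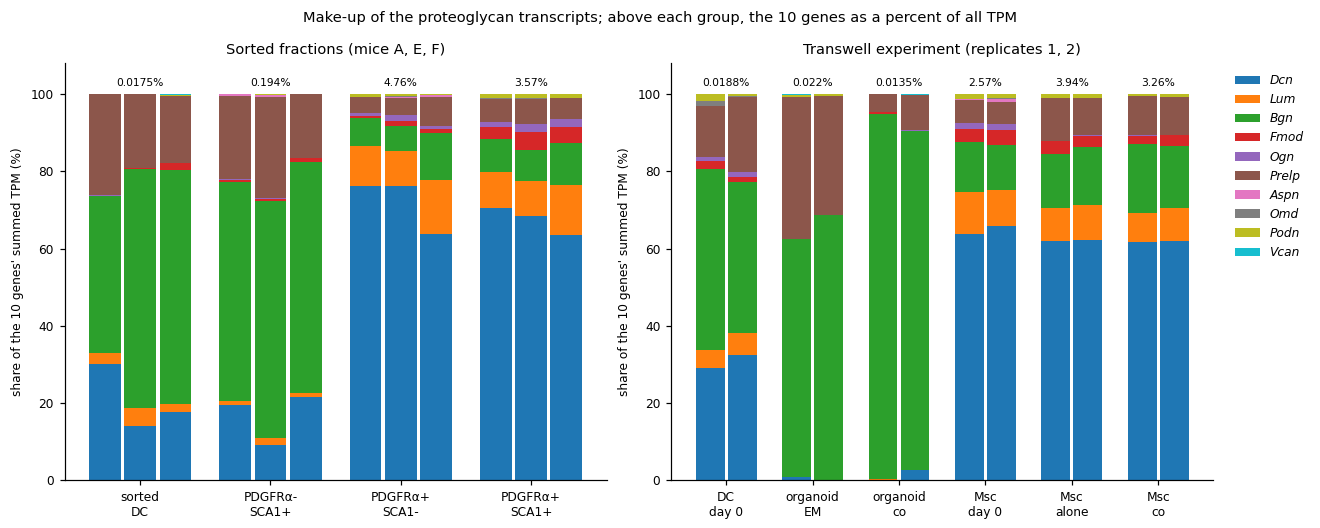
Share of each member in the summed TPM of the 10 members, for each sample of the 4 fractions and 6 transwell groups. Dcn takes the greatest share in all PDGFRα+ and Msc samples, whereas Bgn leads in DC, in PDGFRα-SCA1+ and in both organoid groups.

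The genes whose pattern over the 12 homeostasis samples was most like that of Dcn were Pcolce (Pearson r = 0.9955 of log2 values), which enhances procollagen processing, Adamtsl2 (0.9926), the collagen Col14a1 (0.9898), Tgfbi (0.9875) and Col3a1 (0.9867). Among the members Ogn came 9 in likeness (0.9839), Lum 14 (0.9811), Podn 53 (0.969) and Fmod 75 (0.9638) of 17027 genes, and Omd last at 1334 (0.6756). Over the 12 transwell samples the nearest were Pmp22 (0.9986), Serpinf1 (0.9971), Acvrl1 (0.9968), Adamts10 (0.9963) and Vim (0.9957). There Lum came 8 (0.9951), while Aspn (2784, 0.587) and Omd (3172, 0.526) came last among members. These correlations run over fractions that share mice or libraries of like depth and are descriptions only.

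In the transwell experiment, freshly sorted Msc differed from freshly sorted DC as the PDGFRα+ fractions had. All 10 members were higher in Msc day 0 (limma adjusted p under 0.05), where 21.4% of 18136 genes were. Of these, 3 (Aspn, Omd and Vcan) passed the filter (at least 1 TPM in at least 2 samples) only because of Msc samples, so the count is a description. Dcn was 16775 and 16539 TPM in the 2 Msc day 0 samples and 49.6 and 66.6 in DC day 0, a log2 difference of 8.15 ± 0.51 (adjusted p = 1.9e-06). Aspn was 72.2 and 219 TPM in Msc day 0 and 0 in both DC samples, at least 715-fold higher by the floor of 3 reads. The smallest differences on the log2(TPM + 1) scale were those of Omd (3.19 ± 0.47, adjusted p = 0.00041) and Vcan (3.45 ± 0.34, 3.2e-05). The ratio of means was 14.7 for Omd, 39.5 for Bgn, 47.9 for Prelp and 188 for Vcan. In DC day 0 Omd rested on 31 and 5 reads and Vcan on 10 and 3, so the ratios of these 2 are uncertain. Bgn and Prelp were again the members closest to Msc levels among the abundant ones, with DC at 2.53% and 2.09% of Msc against 0.349% for Dcn and 0.327% for the mesenchymal markers.

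Culture moved the members of the mesenchyme in opposite directions. Comparing Msc alone at day 15 with Msc day 0 tested how the cells changed without DC, and comparing co-cultured Msc with the same day 0 samples how they changed below DC. Both share the day 0 samples. Of 10 members, 6 changed in Msc alone (2 rose and 4 fell, limma), against 44.8% of all genes (27.4% higher and 17.5% lower). In co-cultured Msc 5 changed (2 rose and 3 fell), against 43.3% (26% higher and 17.3% lower). The share of members called was thus near the background, and the split lay between members.

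The 2 members that rose were Bgn and Prelp. Bgn was 3409 and 2912 TPM at day 0, 5752 and 5624 in Msc alone and 5437 and 5597 in co-cultured Msc, a log2 rise of 0.85 ± 0.12 (adjusted p = 0.00044, limma) and 0.81 ± 0.12 (0.00064). Prelp was 1574 and 1387 TPM at day 0, 4545 and 3650 alone and 3057 and 3371 in co-culture, a rise of 1.46 ± 0.28 (adjusted p = 0.0022) and 1.12 ± 0.28 (0.0094). For both genes the cultured samples lay above the day 0 samples without overlap, and 64.6% of all genes did not overlap in either comparison. The call for Prelp in co-culture was lost without the second Msc day 0 or the second co-cultured Msc sample (adjusted p = 0.062 and 0.058). Fitting only the 2 groups compared left Bgn at adjusted p = 0.06 and 0.071.

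The members that fell most were the 3 neighbours on chromosome 13. Aspn dropped from 72.2 and 219 TPM at day 0 to 1.77 and 1.85 in Msc alone and 2.62 and 0.235 in co-culture, log2 differences of -5.50 ± 0.57 (adjusted p = 6e-05, limma) and -5.91 ± 0.57 (4e-05). Omd dropped from 13.4 and 28.2 to 0.670 and 1.48, and to 0.102 and 0.534, or -3.33 ± 0.47 (0.00037) and -3.98 ± 0.47 (0.00013). Ogn dropped from 395 and 414 to 81.7 and 73.9, and to 50.3 and 59.7, or -2.37 ± 0.22 (2.7e-05) and -2.86 ± 0.22 (9.2e-06). Day 0 and cultured samples did not overlap for these 3 genes, as for 64.6% of all genes in either comparison. Vcan was 9.08 and 12.2 TPM at day 0, 2.68 and 4.18 alone and 6.59 and 6.49 in co-culture. It fell in Msc alone (-1.40 ± 0.34, adjusted p = 0.0079; 0.057 without the first Msc alone sample and 0.21 with a pseudocount of 0.1), while its difference in co-culture was -0.62 ± 0.34 (0.18).

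The other members kept levels of the same order. Dcn was 25384 and 23540 TPM in Msc alone and 18856 and 21403 in co-culture, ranking second of all genes in each of these samples, and its differences from day 0 were 0.55 ± 0.51 and 0.27 ± 0.51 (adjusted p = 0.41 and 0.72, limma). Lum ranged from 2357 to 3467 TPM over the 6 Msc samples, Fmod from 675 to 1309 and Podn from 189 to 383, none passing the threshold against day 0. Their differences in Msc alone had 95% intervals of -0.01 to 0.82 for Lum, -0.18 to 0.92 for Fmod and -0.32 to 0.95 for Podn. The Prelp to Fmod ratio in TPM was 1.80 and 1.40 at day 0, 3.47 and 3.30 in Msc alone and 4.53 and 3.67 in co-culture. As a share of all TPM the family was 2.57 ± 0.08% at day 0, 3.94 ± 0.22% in Msc alone and 3.26 ± 0.27% in co-culture (SD, n = 2).

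Several marker lists moved with culture. Of all genes, 27.4% were called higher and 17.5% lower in Msc alone, and 26% and 17.3% in co-cultured Msc. The hepatocyte markers dropped from 15699–20258 to at most 369 TPM. The mesenchymal markers went from 5599–6319 to 15055–17962 TPM, of which 3 of 5 were called higher in each cultured group, and the smooth muscle markers from 567–778 to 3123–3883 TPM, of which 1 of 4 was called higher and 1 lower. The stellate cell markers (Lrat, Reln, Ngfr and Hand2) summed to 155–161 TPM at day 0 and 71.4–99.99 in culture, and the portal fibroblast markers (Thy1, Cd34, Eln, Entpd2 and Gli1) to 602–619 and 235–300. The ductal markers went from 1192–2539 to 215–554 TPM, with 5 of 6 called lower in each cultured group. The endothelial markers went from 202–216 to 91.8–178 TPM (4 of 6 called lower in Msc alone and 3 of 6 in co-culture) and the leukocyte markers from 47.4–93.8 to 4.17–17.6 TPM (3 of 4 tested called lower in each). Their part in the changes of the members was not tested.

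**Figure D4:**
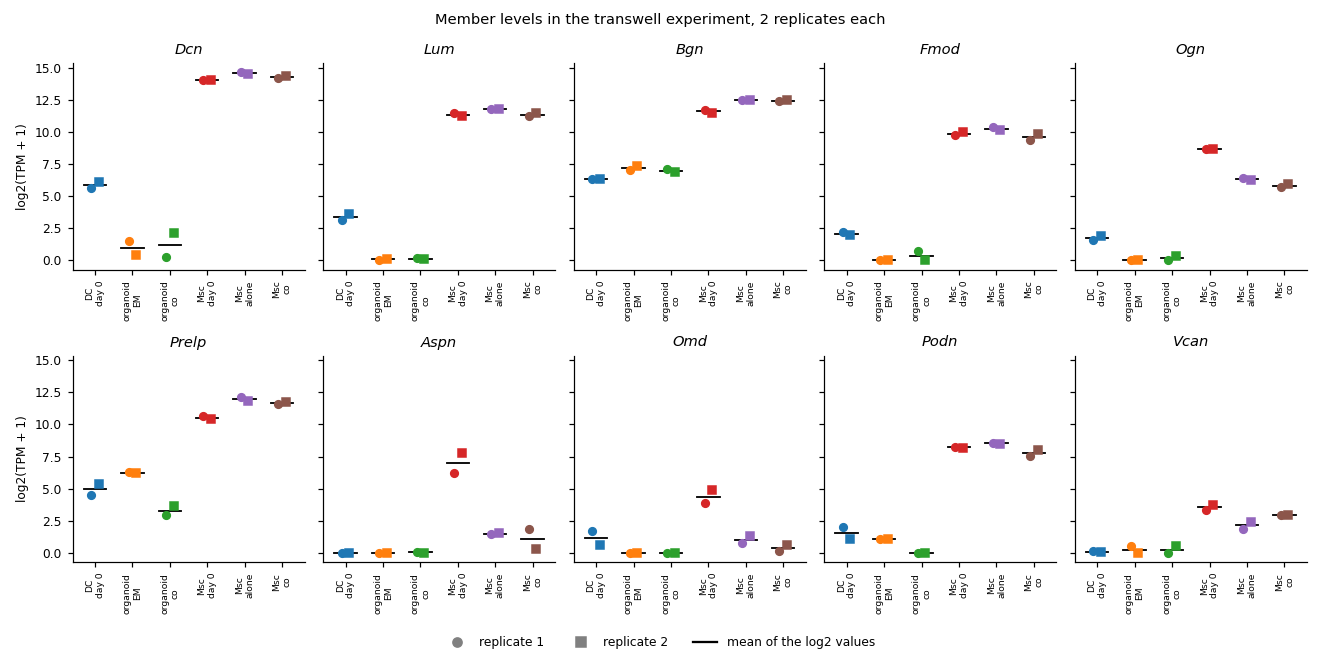
TPM of the 10 members in the 6 transwell groups, on a log scale, with 1 point per sample. In the 3 Msc groups Bgn and Prelp are higher after culture and Aspn, Omd and Ogn lower, Aspn going from 72.2 and 219 to at most 2.62 TPM.

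No member differed detectably between co-cultured Msc and Msc alone with 2 samples per group (limma, adjusted p under 0.05), and 0.127% of all genes did. At an unadjusted p under 0.05 there were 4 members, Fmod, Podn, Ogn and Vcan, and 1263 of 18136 genes. The fitted values of 9 of 10 members were lower in co-culture, from -0.04 ± 0.12 for Bgn to -0.73 ± 0.28 for Podn (adjusted p = 0.64 to 1), while Vcan was 0.79 ± 0.34 higher (adjusted p = 0.7). The 95% intervals left room for differences of more than 1 log2 unit in 6 members, Dcn (-1.42 to 0.86), Podn (-1.36 to -0.09), Fmod (-1.17 to -0.06), Aspn (-1.70 to 0.88), Omd (-1.71 to 0.41) and Vcan (0.02 to 1.55), and for a small one in Bgn (-0.32 to 0.23).

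The members were also measured in DC grown as organoids. Against DC day 0, 6 of 10 members changed in EM organoids (2 rose and 4 fell, limma), where 44.4% of all genes did (27.1% higher and 17.2% lower). In co-cultured organoids 7 changed (1 rose and 6 fell), against 42.3% (23.2% higher and 19.1% lower). Dcn fell from 49.6 and 66.6 TPM to 1.75 and 0.301 in EM organoids and to 0.215 and 3.31 in co-cultured organoids, log2 differences of -4.95 ± 0.51 (adjusted p = 4.8e-05) and -4.68 ± 0.51 (7.5e-05). Lum fell from 7.62 and 11.4 TPM to at most 0.108 in the 4 organoid samples, each with at most 2 reads (-3.32 ± 0.19 and -3.25 ± 0.19, adjusted p = 1.3e-06 and 1.7e-06). Fmod (3.48 and 2.80 TPM at day 0) and Ogn (1.97 and 2.71) fell as well, to 0 in both EM organoid samples. The summed mesenchymal markers were 18.75–20.17 TPM in DC day 0, 1.64–6.032 in EM organoids, where 2 of 5 stood at 0, and 2.57–14.29 in co-cultured organoids, and 3 of the 5 were called lower in EM organoids. Their part in the fall of Dcn, Lum, Fmod and Ogn was not tested.

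Bgn and Prelp behaved differently from these members in the epithelium. Bgn was 79.8 and 80.2 TPM in DC day 0, 127 and 160.2 in EM organoids and 134 and 113 in co-cultured organoids, a rise of 0.83 ± 0.12 log2 units (limma adjusted p = 0.00051) and 0.62 ± 0.12 (0.003). Prelp was 22.2 and 39.7 TPM at day 0, rose to 75.7 and 72.3 in EM organoids (1.29 ± 0.28, adjusted p = 0.0043) and fell to 6.49 and 11.5 in co-cultured organoids (-1.67 ± 0.28, 0.0011). When only the 2 groups compared were fitted, these Prelp differences had adjusted p = 0.069 and 0.079. In EM organoids Bgn made up 65.1% and Prelp 33.8% of the family's TPM, and in co-cultured organoids Bgn alone 91.3%. Relative to Msc day 0, Bgn stood at 4.55% in EM and 3.92% in co-cultured organoids, where Dcn was at 0.00615% and 0.0106% and the mesenchymal markers at 0.0644% and 0.141%.

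Co-cultured organoids differed from EM organoids in 2 members (limma, adjusted p under 0.05), both lower, where 7.21% of all genes were lower. Prelp was 2.95 ± 0.28 log2 units lower (adjusted p = 0.00017; 0.054 when only these groups were fitted). Podn, which read 1.15 and 1.10 TPM in EM organoids and 0 in both co-cultured samples, was 1.09 ± 0.28 lower (adjusted p = 0.034). The Podn call was lost whichever of the 4 samples was left out (adjusted p = 0.13 to 0.14). Vcan stayed at or under 0.413 TPM in all DC and organoid samples, Aspn at or under 0.0475 and Omd at or under 2.32, so that changes of these 3 were hardly measurable in epithelium. Leaving out the second DC day 0 sample, Omd was called lower in both organoid groups (adjusted p = 0.029 and 0.031) and Podn lower in EM organoids (0.016).

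Within the co-culture, the mesenchyme carried the family. Of 10 members, 8 were higher in co-cultured Msc than in co-cultured organoids (limma, adjusted p under 0.05), against 17.7% of all genes. Vcan, among the 8, passed the filter only because of Msc samples, so the count is a description. The differences ranged from 2.67 ± 0.34 log2 units for Vcan to 13.10 ± 0.51 for Dcn. Aspn (1.05 ± 0.57, adjusted p = 0.2) and Omd (0.38 ± 0.47, 0.6), which had dropped to near the floor in cultured Msc, did not pass. Without the second co-cultured Msc sample Aspn did (1.82, adjusted p = 0.047).

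The change from day 0 to co-culture was compared between Msc and DC with an interaction term, and 7 of 10 members differed (limma, adjusted p under 0.05) against 28.3% of all genes. The change was more positive in Msc for Dcn (4.95 ± 0.72, adjusted p = 0.001), Lum (3.25 ± 0.26, 3.9e-05), Prelp (2.79 ± 0.39, 0.00091) and Fmod (1.45 ± 0.35, 0.013). It was more negative in Msc for Aspn (-5.94 ± 0.81, 0.00074), Omd (-2.81 ± 0.67, 0.012) and Ogn (-1.30 ± 0.31, 0.012). Prelp rose in Msc and fell in organoids in the same wells and medium. The changes of the 2 cell types were not matched in time, since the Msc were expanded before the DC were added. Nor were they matched in support, with DC in Matrigel on the insert and Msc on the plate below. Bgn rose in both, and its difference was 0.19 ± 0.18 (adjusted p = 0.46, 95% interval -0.20 to 0.58). The value for Ogn turned to 0.78 (adjusted p = 0.48) with a pseudocount of 0.1 and that for Omd missed the threshold (0.24), so the sign for Ogn depended on how its near-0 organoid values were offset. The call for Fmod was lost without the first DC day 0 or the second co-cultured Msc sample (0.052 and 0.056) and with the RPKM values as deposited (0.56, adjusted p = 0.11). Podn was called without the second DC day 0 sample (1.565, adjusted p = 0.0079) and with a pseudocount of 0.1 (3.83, adjusted p = 0.0017).

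**Figure D5:**
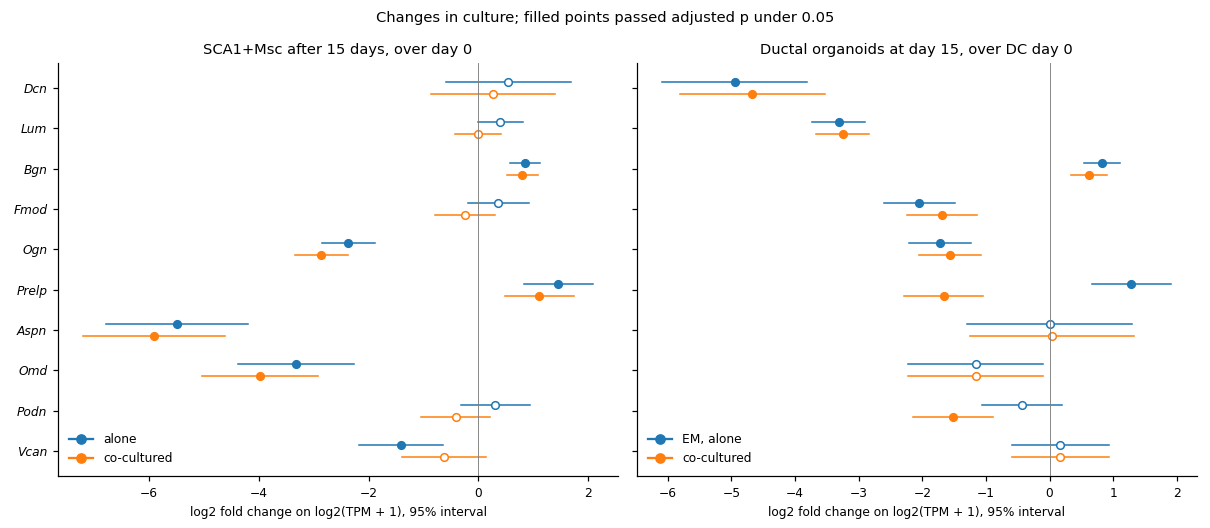
Fitted log2 differences of the 10 members between cultured and day 0 samples, with 95% intervals, for Msc alone, co-cultured Msc, EM organoids and co-cultured organoids. Bgn lies above 0 in all 4 comparisons, Prelp above 0 in 3 and below 0 in co-cultured organoids, and Aspn, Omd and Ogn below 0 in both Msc comparisons.

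Genes that work with these proteoglycans were followed by lists. Of 10 collagens that SLRPs bind, 10 were higher in PDGFRα+SCA1+ than in DC (limma, adjusted p under 0.05, median 7.23), against 9.85% of all genes. Among them Col6a1 was at 8.63 ± 0.74, Col3a1 at 8.60 ± 0.28, Col1a1 at 8.59 ± 0.57 and Col14a1 at 7.57 ± 0.36. In Msc alone 4 of 10 rose over day 0 and none fell, where 27.4% of all genes rose and 17.5% fell. The 4 were Col12a1 (2.35 ± 0.23), Col5a2 (2.11 ± 0.28), Col3a1 (1.85 ± 0.32) and Col5a1 (1.31 ± 0.25). The count was again 4 in co-cultured Msc, where 26% of all genes rose. Of 4 further SLRP-like genes tested, Ecm2 (5.32 ± 0.54) and Tsku (3.57 ± 1.15) were higher in PDGFRα+SCA1+ than in DC. Ecm2, like Aspn, Omd and Ogn, fell in cultured Msc, from 46.5 ± 10.4 TPM to 0.263 ± 0.269 alone (-5.23 ± 0.38, limma adjusted p = 6.7e-06), whereas Podnl1 rose (2.63 ± 0.43).

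Of 21 enzymes that build chondroitin and dermatan sulfate chains, 11 were higher and 1 lower in PDGFRα+SCA1+ than in DC. Over all genes 9.85% were called higher there, and 2376 of 17028 lower. Among the higher enzymes was Dse, which turns chondroitin into dermatan sulfate (5.44 ± 0.51 log2 units, limma adjusted p = 9.3e-06). So were the sulfotransferases Ust (5.34 ± 0.63), Chst15 (5.11 ± 0.59) and Chst7 (3.78 ± 0.89). In Msc alone 8 rose and 2 fell against day 0, where 27.4% of all genes rose and 17.5% fell. Chst13 rose from 0 to 34.2 ± 6.0 TPM (5.13 ± 0.45), B4galt7 by 2.29 ± 0.37 and Chst12 by 2.08 ± 0.18, while Xylt1, which starts the chain, fell by 2.61 ± 0.40. Of 3 keratan sulfate enzymes tested, Chst1 was higher in PDGFRα+SCA1+ than in DC (3.42 ± 0.93, adjusted p = 0.018), and B4galt4 was higher in PDGFRα+SCA1+ than in PDGFRα+SCA1- (2.99 ± 0.49, adjusted p = 0.026). B4galt4 was the only gene tested in the 10 lists of partners to differ between those 2 PDGFRα+ fractions. Of 7 other hyaluronan-binding proteoglycans and link proteins, 1 passed the filter in the sorted fractions and was not called between PDGFRα+SCA1+ and DC. In the transwell samples 2 passed, of which Hapln4 rose in Msc alone (2.11 ± 0.61, adjusted p = 0.019).

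The partners of versican were followed from the sorted fractions into culture. The hyaluronan synthase Has1 was at 505 ± 294 in PDGFRα+SCA1+ and 0.661 ± 0.272 in DC (8.02 ± 0.56, limma adjusted p = 8.2e-07), and fell from 947 ± 372 TPM in Msc day 0 to 1.19 ± 0.80 in Msc alone (-8.75 ± 0.65, 7.8e-06). Tnfaip6, which loads heavy chains onto hyaluronan, fell likewise (-6.29 ± 0.23), while the hyaluronan-degrading Cemip (4.01 ± 0.34) and the receptor Hmmr (2.24 ± 0.34) rose. In all, 3 of 8 hyaluronan genes tested rose in Msc alone and 3 fell, where 27.4% of all genes rose and 17.5% fell. Of the proteases that cut versican or SLRPs, 3 of 6 rose and 3 fell in Msc alone: Adamts4 fell from 1200.0 ± 45.8 to 34.4 ± 6.5 TPM (-5.10 ± 0.40), while Adamts15 (4.05 ± 0.22), Adamts5 (2.58 ± 0.31) and Bmp1 (1.93 ± 0.20) rose. The versican-binding Fbln2 rose by 3.44 ± 0.44 and Fbn1 by 0.82 ± 0.25. None of the genes of these lists differed between co-cultured Msc and Msc alone at the threshold.

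Of 6 receptors tested that bind SLRPs, Lrp1 was higher (4.55 ± 0.31) and Met lower (-5.64 ± 0.48) in PDGFRα+SCA1+ than in DC (limma, adjusted p = 7.4e-07 and 3.8e-06). Tlr2 (-3.34 ± 0.41) and Met (-1.58 ± 0.25) fell in Msc alone against day 0, where 17.5% of all genes were called lower. The summed ductal, hepatocyte and leukocyte markers dropped there too, and their part in the falls of Tlr2 and Met was not tested. In co-cultured against EM organoids Egfr was 1.23 ± 0.20 and Lrp1 1.04 ± 0.26 higher (adjusted p = 0.0039 and 0.029). Of 13 other cell-surface and basement membrane proteoglycans, 5 were higher and 3 lower in PDGFRα+SCA1+ than in DC, led by Gpc6 (5.52 ± 0.49). Over all genes 9.85% were called higher there, and 2376 of 17028 lower. In co-cultured against EM organoids Gpc3 differed by -4.89 ± 0.35 (limma adjusted p = 3.2e-05).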

How the data were processed

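RNA-seq of 12 homeostasis and 12 transwell samples was analysed. Per the study's methods, libraries were made with Smart-seq2, which does not mark strand, sequenced as single reads, mapped to GRCm38/mm10 with STAR 2.5.0a, filtered with SAMtools and counted over exons with featureCounts 1.6.0 (the version in the submitters' processing notes) and the Ensembl GRCm38 annotation. The authors deposited RPKM for the transwell samples and values they call TPM for the homeostasis samples. The transwell RPKM were rescaled to TPM by each column's sum.

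The deposited homeostasis values summed to 847270 to 1173511 per sample, where TPM would sum to 1 fixed total. They behaved as RPKM divided by 12 column totals reused in turn down the table, which multiplied a value by 0.722 to 1.39 against TPM. Undoing this gave whole reads (within 0.02) for 92.9% of values of 20 reads or fewer, against 16.1% with each sample's own total. The values were tested as deposited, and the undone TPM were used for shares, ranks and ratios between genes and as an alternative. Reads were recovered with the length behind the deposited values, which differed from GENCODE M21 for Dcn, Lum, Ogn and Omd. The floor of 3 reads covers counting error only.

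Groups and replicates came from the labels. Each comparison was fitted with limma 3.58.1 (R 4.3.3, empirical Bayes with trend) on log2(value + 1), over all 12 samples of its table with 1 mean per group, for genes at 1 or more in at least 3 (homeostasis) or 2 (transwell) samples. P-values were two-sided and adjusted by Benjamini-Hochberg over all genes tested, and a gene was called at an adjusted p under 0.05. Fold changes on this scale understate those of low genes. The step was tested on simulated data. Tables were handled with Python 3.11.15, numpy 2.4.6 and pandas 2.3.3.

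The fractions of 1 mouse came from the same animal, so mice pair the homeostasis samples. Residuals of same-mouse samples correlated at 0.00395 to 0.0973 over 18 pairs (median 0.0308). Per the study, the 2 transwell replicates were biological replicates from littermates, with Msc and DC taken from different mice, and which mouse gave which replicate is not stated.

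Alternatives were a block on mouse (homeostasis) or replicate number (transwell), a pseudocount of 0.1, no filter, quantile normalization, only the groups compared, undone totals, RPKM as deposited, each sample left out and, added after the data were seen, males alone and undone totals with the block. The members and the gene lists were chosen with earlier results of these data known. All 10 members were named, with up to 4 genes per list and comparison (called, not overlapping, with the greatest change) and the 5 genes most like Dcn. The lists were other SLRPs, hyaluronan-binding and link proteins, chain synthesis (chondroitin and keratan), hyaluronan, collagens, proteases, versican partners, receptors, other proteoglycans and cell type markers.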

Additional observations from a re-analysis of the deposited data

Results flagged for a closer look

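The change from day 0 to co-culture differed between Msc and DC for 7 members by the interaction term of the limma fit over 12 samples, with 2 samples per group. The log2 difference of changes was 4.95 for Dcn, 3.25 for Lum, 2.79 for Prelp and 1.45 for Fmod, whose change was more positive in Msc. It was -5.94 for Aspn, -2.81 for Omd and -1.30 for Ogn, whose change was more negative in Msc. For Aspn the co-cultured organoids and DC day 0 held at most 1 read per sample, so its value is the drop within Msc. Dcn, Lum and Fmod did not pass the threshold in Msc, with changes of 0.27, 7.9e-05 and -0.24. In DC they fell by -4.68, -3.25 and -1.69, so their values are mostly the drop within DC. For Ogn and Omd the value depended on the pseudocount. Prelp was the 1 member that rose in Msc and fell in DC with both changes past the threshold.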

How the results depend on the processing

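Over 150 pairs of member and comparison, alternatives other than leaving out a sample kept direction and side of the threshold in 986 values, lost the call in 23, gained one in 7 and changed sign in 4. With 1 sample left out the counts were 726, 15, 8 and 11. Among the 23 lost calls, 10 came from fitting only the groups compared, which leaves fewer samples to estimate the spread.

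The count of members called between the PDGFRα+ fractions was 0 and ranged from 0 to 2 with 1 sample left out. For co-cultured against EM organoids it was 2, and 1 with no filter, with only the groups compared, with quantile normalization and with RPKM as deposited. It was 1 whichever sample was left out. No other count of members moved by over 1.5 times.

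The sign changed in comparisons whose value was not past the threshold. PDGFRα+SCA1+ against PDGFRα+SCA1-, males alone, gave -0.053 for Ogn and 0.084 for Prelp, and Prelp ranged from -0.27 to 0.020 with 1 sample left out. Lum in co-cultured Msc against day 0 was -0.071 as RPKM and ranged from -0.14 to 0.14 with 1 sample left out. The corresponding ranges were -1.19 to 0.36 for Aspn in co-cultured Msc against Msc alone, -0.89 to 0.027 for Podn and -0.079 to 0.41 for Vcan in EM organoids against DC, and -0.079 to 0.42 for Vcan in co-cultured organoids against DC. Between the organoid groups Dcn ranged from -0.64 to 1.19 and Vcan from -0.25 to 0.25. The interaction value of Ogn, past the threshold in the main fit, was 0.78 with a pseudocount of 0.1. The cause was not tested.

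Quantile normalization moved the median of all genes by up to 0.363 log2 units (PDGFRα+SCA1- against PDGFRα-SCA1+, where the share of called genes that were higher went from 33.7% to 49.6%), and by 0.177 for PDGFRα+SCA1+ against DC. In PDGFRα+SCA1- against DC that share went from 34.6% to 46.1%, in PDGFRα+SCA1+ against PDGFRα-SCA1+ from 41.9% to 54.3%, and in PDGFRα+SCA1+ against PDGFRα+SCA1- from 74% to 57.4%. No direction of a called member changed with it.

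With the mouse as a block the call for Ogn in PDGFRα-SCA1+ against DC was lost (adjusted p = 0.069, and 0.052 with undone totals), and no other call of a member changed. The transwell replicate numbers mark only a number: over 30 pairs of samples with the same number the residual correlation was -0.0188 to 0.0295 (median 0.00564). With 2 samples per group the residuals mirror each other, so replicates 1 and 2 of any 2 groups give the same value. Blocking on the number changed no call of a member, which stayed at 10 for Msc day 0 against DC day 0 and at 6 for Msc alone against day 0. Aspn, Omd and Vcan were low in epithelial samples, where most values rested on 10 reads or fewer. The part of depth in this was not tested.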
